A study of Rattus norvegicus with 9 samples.

Results

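At an inhibitory synapse, a scaffold protein holds GABA-A and glycine receptors in place opposite the GABA-releasing terminal, adhesion proteins tie that scaffold to the terminal, and small carrier proteins help move receptors to and from the surface. Whether opening of these receptors hyperpolarises the cell depends on the chloride gradient, which an importing and an exporting cation-chloride cotransporter set against each other. In the thalamus this machinery receives the input of the reticular nucleus, the main source of inhibition onto relay neurons. The genes described here are 9 listed genes of that machinery: the scaffold genes Gphn and Iqsec3, the adhesion genes Nlgn2 and Slitrk3, the receptor carriers Gabarap, Gabarapl1 and Gabarapl2, and the chloride transporters Slc12a2 and Slc12a5. They were taken by name, through every probe set that the platform annotation gives a single gene symbol, which left 11 of 31042 rat probe sets for 8 of the 9 genes. Gabarapl2 had no value, because its 2 probe sets also carry the symbol Gabarapl3.

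Thalamic RNA of male Wistar rats was hybridised to oligonucleotide arrays of a single colour, 4 of them for the solid chow diet and 5 for the powdered diet. Rats were 3 weeks old at the start, all ate powder for 2 days, and groups of similar mean weight then ate chow or powder for 8 days. Each sample is labelled 5 weeks old, which these times do not reach. The labels give 10 rats for the study, and 9 arrays were analysed here. The labels name no transgene and no drug. Because they do not tie each array to an animal, p-values measure the spread between arrays, part of which may be technical. The comparison asks whether chewing solid food after weaning alters gene expression in the thalamus, with GABA signalling as a stated interest.

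The deposited values are on a log2 scale, and most of them scarcely vary between arrays. The highest and lowest of the 9 values lay under 0.01 log2 units apart for 26193 of the 31042 probe sets (84.4%), here called compressed, with a median span of 0.000475. Of the 11 member probe sets, 4 spanned at least 0.01, namely 1 each of Gabarap, Gabarapl1, Slc12a2 and Slitrk3. The other 7 were compressed, among them the probe sets of Gphn, Iqsec3 and Slc12a5, both of Nlgn2 and the second ones of Gabarap and Gabarapl1. A difference on a compressed probe set has a direction and a test result, but neither its size nor, where rescaling turns it, its direction says anything usable about the amount of RNA.

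The array labelled chow 1 stood apart in some regional markers, and hypothalamic markers varied widely within both diets. The mean log2 value over 5 striatal marker genes was 8.75 on chow 1 and 7.71 to 7.91 on the other arrays. Over 8 reticular nucleus and GABA neuron markers it was 8.92 on chow 1 and 8.32 to 8.66 elsewhere, and over 8 relay neuron markers it was 9.84 on chow 1 and 10.16 to 10.38 elsewhere. Over 4 hypothalamic markers it ran from 8.41 to 9.72 under chow, with chow 4 highest and chow 1 at 9.68, and from 7.54 to 9.68 under powder. Tcf7l2, a transcription factor of thalamic neurons and the brightest of the relay neuron markers, lay between 11.47 and 12.15 on its brightest probe set. Zic1, the dimmest, had a mean of 7.87. On that Tcf7l2 probe set every chow array lay below every powder array. The diets were fully separated for 2 of 14 relay marker probe sets, lower under chow. Of 10 reticular nucleus and GABA neuron probe sets 1, of Gad2, was separated, higher under chow. The share over all probe sets was 29.9%. The 3' minus 5' difference of the beta-actin control probe sets, which rises as RNA degrades, was 1.44 to 1.58 on the chow arrays and 1.55 to 1.70 on the powder arrays. These ranges overlapped only slightly, so RNA quality and diet cannot be fully told apart. Array correlations ran from 0.991 to 0.999. Fewer cells of a type and less RNA per cell cannot be told apart in bulk tissue.

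Both receptor carriers with a varying probe set were higher under chow, and no varying member was called lower. A probe set was called where limma's Benjamini-Hochberg adjusted p over all 31042 rat probe sets was under 0.05. By that rule 4 of the 11 members were called, 2 higher and 2 lower, against 34.6% of all rat probe sets. After quantile normalization, and with array medians subtracted, the split was 9 higher and 0 lower. Over all 31042 probe sets the split was then 15610 higher and 1854 lower (quantile), and 27206 and 2141 (medians). The 2 higher ones, of Gabarap and Gabarapl1, were among the 4 varying members, where 54.9% of all varying probe sets were called, 16.1% higher and 38.8% lower. The 2 lower ones, of Nlgn2 and Gabarap, were compressed, a class in which 30.9% were called and 12.7% called lower, and both turned to higher under either rescaling. Among the 4 varying members 0 were called lower in limma, and 0 were lower at an unadjusted p under 0.05. The median difference was 0.06 over the varying members and -0.11 over all 4849 varying probe sets. The 2 diets were fully separated for 3 of the 11 members, against 29.9% of all probe sets, so the members' counts were close to the background.

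Gabarap encodes a small ubiquitin-like protein of the Atg8 family that binds the gamma2 subunit of the GABA-A receptor and microtubules, and that also takes part in autophagy. On probe set 1370804_at its log2 values were 11.129, 11.002, 11.009 and 11.003 on chow arrays 1 to 4. On powder arrays 1 to 5 they were 10.898, 10.911, 10.956, 10.883 and 10.959. Every chow array lay above every powder array, and chow 1 lay well above the other 3, which differed from each other by less than 0.01. The chow mean was 11.04 ± 0.062 (SD, n = 4) and the powder mean 10.92 ± 0.034 (SD, n = 5). The difference was 0.11 ± 0.031 (SE; 95% confidence interval 0.04 to 0.19), a 1.08-fold higher level under chow (limma, adjusted p = 0.0292). Of the varying probe sets, 72.8% had a larger absolute difference.

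Without chow 1 the Gabarap difference was 0.083 and still called (adjusted p = 0.0286). It was not called without powder 1, powder 2 or powder 4 (adjusted p = 0.0641, 0.0585 and 0.056), nor with the beta-actin difference as a covariate (0.14, adjusted p = 0.138). The second Gabarap probe set, 1378279_at, was compressed and called the other way. In units of 0.0001 log2 around its mean, its chow values were 0.65, -2.58, -2.35 and -1.94 and its powder values 2.08, -0.10, 2.59, 0.59 and 1.06. Chow 1 lay within the powder range and the other 3 chow arrays lay below it. The difference was -2.80 ± 0.84 of these units (limma, adjusted p = 0.0382), and it was called in 2 of 9 fits that left out a single array, those without chow 1 and without powder 2. It turned to 0.00331 log2 units after quantile normalization and 0.00629 with medians subtracted.

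Gabarapl1 encodes a close relative of Gabarap that also binds GABA-A receptors and serves in autophagy. On probe set 1378842_at its log2 values were 9.412, 9.191, 9.299 and 9.172 on the chow arrays. On the powder arrays they were 9.099, 9.042, 9.138, 9.156 and 8.997. The groups did not overlap, but the lowest chow array, chow 4, lay close to the highest powder array, powder 4. The chow mean was 9.27 ± 0.111 (SD, n = 4) and the powder mean 9.09 ± 0.067 (SD, n = 5). The difference was 0.18 ± 0.058 (SE; 95% confidence interval 0.05 to 0.32), 1.13-fold, with a limma adjusted p of 0.0445. Of the varying probe sets, 52.1% had a larger absolute difference.

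The Gabarapl1 call rested on nearly every array, since it held in 1 of 9 fits with a single array left out, that without chow 4 (adjusted p = 0.0399), and was lost in the other 8 (adjusted p from 0.051 to 0.0914). Without chow 1 the difference was 0.13 (adjusted p = 0.0787). With the beta-actin covariate the difference was 0.084 (adjusted p = 0.52). Its second probe set, 1371680_at, was compressed. In units of 0.0001 log2 around the mean, it stood at 1.06, -0.47, 0.87 and -4.29 on the chow arrays and at 2.37, 1.80, 1.94, 0.99 and -4.27 on the powder arrays. A single array of each group, chow 4 and powder 5, lay far below the rest, and the limma difference of -1.27 ± 1.72 units was not called (adjusted p = 0.576), whereas it was called higher under both rescalings, at 0.0283 and 0.00644 log2 units (adjusted p = 0.0131 and 0.00199).

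**Figure D1:**
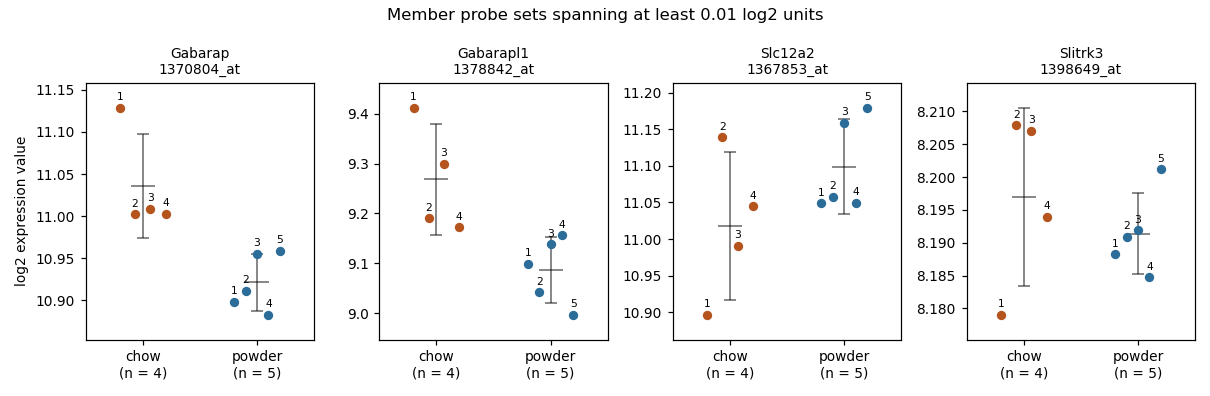
Log2 expression values of the 4 varying member probe sets, each point an array with its replicate number, by diet (chow n = 4, powder n = 5). Horizontal marks are group means and bars are SD. All chow points lie above all powder points for Gabarap and Gabarapl1, and the groups overlap for Slc12a2 and Slitrk3.

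Because these 2 carriers were higher together, the 250 bases before each gene's start were read from the RefSeq promoter table of rat build GRCr8, in which all 9 genes matched by symbol. That of Gabarap lies at chr10:55213215-55213464 on the plus strand and that of Gabarapl1 at chr4:164666082-164666331, also on the plus strand. Both are shown so that their motif matches can be seen, with matches in capitals.
Gabarap: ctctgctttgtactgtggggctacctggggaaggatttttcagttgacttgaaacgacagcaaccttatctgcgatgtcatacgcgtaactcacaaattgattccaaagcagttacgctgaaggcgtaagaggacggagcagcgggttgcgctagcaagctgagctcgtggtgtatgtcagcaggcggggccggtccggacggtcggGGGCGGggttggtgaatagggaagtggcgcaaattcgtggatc
Gabarapl1: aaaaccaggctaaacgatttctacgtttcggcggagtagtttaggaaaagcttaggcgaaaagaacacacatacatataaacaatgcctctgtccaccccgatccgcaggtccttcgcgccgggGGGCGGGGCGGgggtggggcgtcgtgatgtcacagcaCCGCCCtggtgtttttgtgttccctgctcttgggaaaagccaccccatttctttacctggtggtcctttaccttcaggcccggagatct
The motifs searched on both strands were the GC box GGGCGG, the CCAAT box CCAAT, the E-box CACGTG, the cyclic AMP response element core TGACGT and the forkhead site GTAAACA. Only the GC box was found in these 2 windows, once in Gabarap and 3 times in Gabarapl1, where 2 matches share a base and another is on the reverse strand as CCGCCC. It was present in 7 of the 9 members' windows, all but those of Iqsec3 and Slitrk3, and in 30.5% of all 33469 windows of the same length. The CCAAT box was in 1 of the 9, that of Slc12a5 (34.0% of all windows), and the cyclic AMP core in 1, that of Gabarapl2 (6.95%). The E-box and the forkhead site were in 0 of the 9 (5.59% and 3.21% of all).

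The scaffold genes showed no called difference on the compressed values as deposited. Both were called higher after rescaling, as were 15610 (quantile) and 27206 (medians) of all 31042 probe sets. These rescalings shift the chow minus powder difference by a median of 0.0061 and 0.0066 log2 units, more than either scaffold probe set spans. Gphn encodes gephyrin, which assembles into the lattice that anchors GABA-A and glycine receptors and which also takes part in making the molybdenum cofactor. In units of 0.0001 log2 around the probe set mean, 1368117_at stood at 0.47, -0.56, -0.15 and -1.43 under chow and at -0.42, 0.43, 1.51, -0.02 and 0.17 under powder. The groups overlapped, and the limma difference was -0.75 ± 0.51 units (adjusted p = 0.268). It became 0.0302 log2 units by quantile normalization and 0.0065 by subtracting medians (adjusted p = 0.000262 and 0.00198). Iqsec3 encodes an exchange factor for ARF GTPases that binds gephyrin. Its probe set 1391036_at stood at 1.43, -1.04, -0.78 and 0.81 under chow and at -0.85, -0.28, -0.39, 1.60 and -0.51 under powder. The difference was 0.19 ± 0.71 units (adjusted p = 0.846), and its sign turned without chow 1 or chow 4. The same rescalings gave 0.0299 and 0.00659 log2 units (adjusted p = 0.000219 and 0.00198).

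Of the adhesion genes, Nlgn2 had a called and an uncalled probe set of opposite sign, both compressed. Nlgn2 encodes neuroligin-2, which binds presynaptic neurexins and recruits gephyrin. Probe set 1397705_at stood at -0.14, -0.93, -2.55 and -1.44 units of 0.0001 log2 under chow and at 1.45, 0.40, 1.34, 0.69 and 1.17 under powder. All chow arrays lay below all powder arrays, by a limma difference of -2.27 ± 0.50 units (adjusted p = 0.0144) that was called in 9 of 9 fits with a single array left out and turned to 0.0137 log2 units after quantile normalization and 0.00634 with medians subtracted. With the beta-actin covariate it was -0.000141 log2 units and not called (adjusted p = 0.235), and the median of both Nlgn2 probe sets gave -2.15e-05 (adjusted p = 0.816). Probe set 1368895_at stood at 4.03, 0.27, 0.35 and -0.55 under chow and at -0.48, -1.63, -1.11, -0.73 and -0.16 under powder. Its difference was 1.84 ± 0.92 units and was not called (adjusted p = 0.151), but was called under both rescalings (adjusted p = 0.0243 and 0.00198). Chow 1 was far above the other arrays, and without it the difference was 8.43e-05 log2 units (adjusted p = 0.161).

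Slitrk3 encodes an adhesion protein that pairs with the presynaptic phosphatase encoded by Ptprd at inhibitory synapses. On probe set 1398649_at it stood at 8.179, 8.208, 8.207 and 8.194 under chow and at 8.188, 8.191, 8.192, 8.185 and 8.201 under powder. Chow 1 was the lowest of all 9 arrays and chow 2 and 3 were the highest. The limma difference was 0.0056 ± 0.0065 (95% confidence interval -0.0096 to 0.0209, adjusted p = 0.513). Without chow 1 it was 0.012 (adjusted p = 0.112), and after quantile normalization it was called, at 0.0266 (adjusted p = 0.0156). Of all varying probe sets 97.2% had a wider span, so Slitrk3 was only just above the limit of 0.01.

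The chloride transporters were not called on the values as deposited. Slc12a2 encodes NKCC1, which brings chloride into cells and is abundant in immature neurons, glia and choroid plexus. Its log2 values on 1367853_at were 10.90, 11.14, 10.99 and 11.04 under chow and 11.05, 11.06, 11.16, 11.05 and 11.18 under powder. Of the chow arrays 3 lay below every powder array, and chow 2 lay within the powder range. Means were 11.02 ± 0.102 and 11.10 ± 0.065 (SD, n = 4 and 5), and the limma difference of -0.08 ± 0.054 was not called (95% confidence interval -0.21 to 0.04, adjusted p = 0.26). Without chow 1, the lowest array, it was -0.041 (adjusted p = 0.539). The choroid plexus marker mean ran from 7.27 to 7.50 under chow and from 7.04 to 7.47 under powder over 6 genes, 1 of whose 8 probe sets was called higher and 0 lower (limma), and its part in the Slc12a2 values was not tested.

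Slc12a5 encodes KCC2, the neuronal exporter whose rise during development makes GABA inhibitory. Its single probe set, 1370069_at, was compressed. In units of 0.0001 log2 it stood at 0.89, 0.95, 0.08 and -0.48 under chow and at -0.29, -1.04, 0.17, 1.08 and -1.35 under powder. The groups overlapped fully, with powder arrays both highest and lowest, and the limma difference was 0.64 ± 0.57 units (adjusted p = 0.393). It became -0.0096 log2 units by quantile normalization (adjusted p = 0.137) and 0.00664 by subtracting medians (adjusted p = 0.00198). With the Slc12a5 values compressed, no balance of importer against exporter could be measured.

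**Figure D2:**
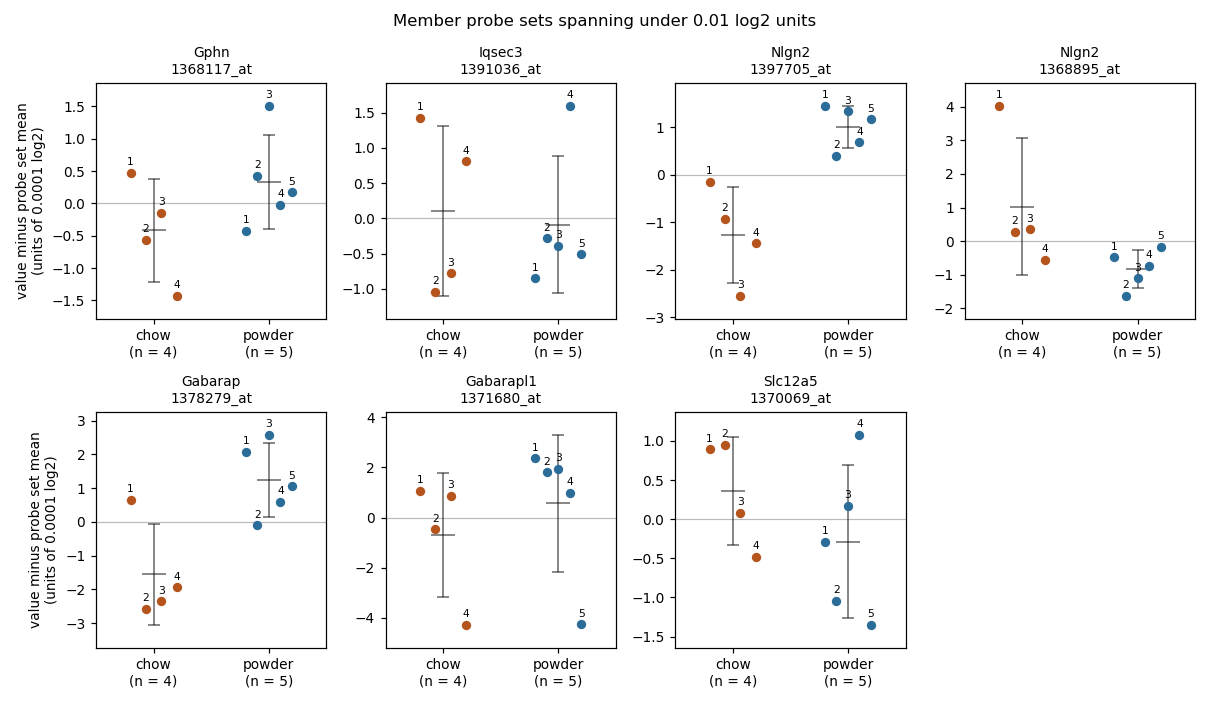
Values of the 7 compressed member probe sets as deviations from each probe set's mean, in units of 0.0001 log2, by diet, with replicate numbers, group means and SD (chow n = 4, powder n = 5). The groups separate only for Nlgn2 1397705_at, and a single array lies apart from its group for Iqsec3 (powder 4) and for Gabarapl1 1371680_at (powder 5).

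**Figure D3:**
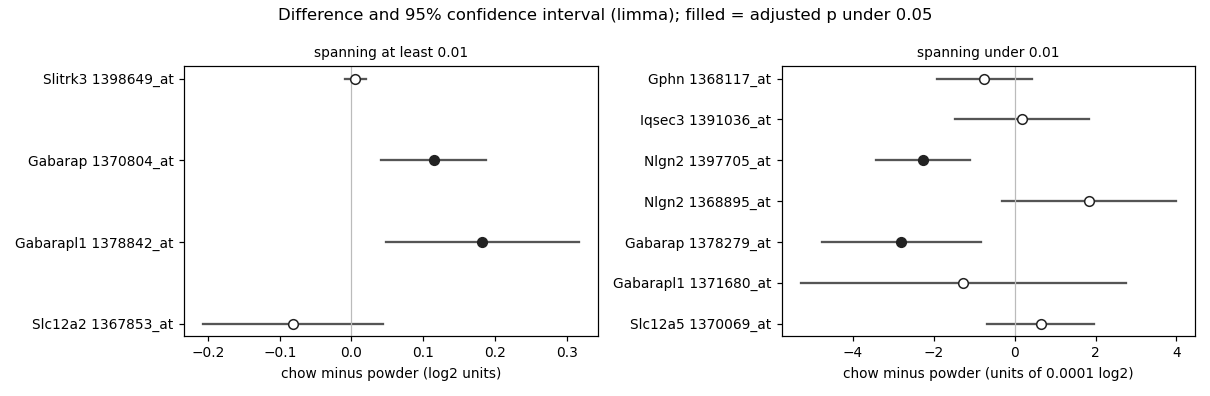
Chow minus powder difference of each member probe set with its 95% confidence interval from limma. The left panel is in log2 units and the right panel in units of 0.0001 log2; filled points had an adjusted p under 0.05. Gabarap 1370804_at and Gabarapl1 1378842_at lie above 0, and Nlgn2 1397705_at and Gabarap 1378279_at lie below it on the values as deposited, but above it after either rescaling.

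The probe sets most like the 2 called carriers across the arrays were sought among 3432 varying single-symbol probe sets of other genes, by the root mean square distance of mean-centred values over 9 arrays. Nearest to Gabarap were Rps15, a ribosomal protein gene (0.028 log2 units), Ubxn4, which encodes a membrane protein of endoplasmic reticulum protein degradation (0.0283), and Oaz1, the antizyme that limits polyamine synthesis (0.0298). Nearest to Gabarapl1 were Xbp1, a transcription factor of the unfolded protein response (0.0353), Tomm20, a mitochondrial import receptor (0.0355), and Magee1, which encodes a member of the MAGE family (0.0361). Their limma differences were 0.11, 0.14 and 0.08 for the first 3 and 0.15, 0.21 and 0.13 for the others, of which Xbp1 (adjusted p = 0.0885) and Magee1 (0.0863) were not called. The distance includes the diet difference itself, and chow 1 was the highest array for all 6 genes, as it was for both carriers.

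Around the members, 7 lists of partner genes were counted in the same fit. Over the lists together, 62 of 199 probe sets were higher and 23 lower under chow, against 17.9% higher and 16.7% lower over all probe sets. Among their 66 varying probe sets 27 were higher and 13 lower, against 16.1% and 38.8% of all varying probe sets. The median difference of these 66 was 0.07, against -0.11 over all varying probe sets. With the beta-actin covariate the counts over all 199 were 5 higher and 5 lower, and without chow 1 they were 45 and 17. After quantile normalization they were 123 and 10, and with medians subtracted 164 and 15. Over all 31042 probe sets those settings gave 15610 higher and 1854 lower, and 27206 and 2141. Each list's rescaled counts below stand against that background. Of the 40 called varying partner probe sets, 38 kept their direction after quantile normalization, all but 1 each of Lhfpl3 and Clcn6, and 40 kept it with medians subtracted.

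Of genes that anchor receptors or gephyrin, 12 probe sets were called higher and 1 lower, and the other 21 of the 34 were not called, for 17 of 26 listed genes (23 and 0 after quantile normalization, 32 and 0 with medians subtracted). The share called higher over all probe sets was 17.9%, and 6 of these 12 were compressed. Among the varying ones 6 of 9 were higher and 1, of Lhfpl3, lower, against 16.1% and 38.8% of all varying probe sets. Dtna, which encodes dystrobrevin alpha, was higher by 0.37 ± 0.062 (limma, adjusted p = 0.00668). Dag1, the gene of dystroglycan, a receptor of the dystrophin complex found at inhibitory synapses and at vessels, was higher on 2 varying probe sets, by 0.28 ± 0.048 and 0.25 ± 0.052 (adjusted p = 0.00692 and 0.0131). Neither Dtna (adjusted p = 0.0919) nor Dag1 (0.116 and 0.106) was called with the beta-actin covariate. Both genes are also expressed by astrocytes. Of 14 astrocyte marker probe sets 3 were called higher and 0 lower (limma), while the mean over 7 astrocyte markers ran from 10.16 to 10.30 under chow and from 10.26 to 10.31 under powder, with no marker at 0. The part of astrocytes in these differences was not tested.

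Adhesion partners gave 11 higher and 2 lower of 28 probe sets for 13 of 20 genes, against 17.9% and 16.7% of all probe sets. The same rescalings gave 20 and 1, and 22 and 1 of the 28. Among the list's 10 varying probe sets 3 were higher and 1 lower as deposited. The shares over all varying probe sets were 16.1% and 38.8%. Cntnap2, a neurexin-related protein, had 2 varying probe sets higher (0.37 ± 0.025 and 0.22 ± 0.018, limma adjusted p = 0.00125 and 0.00154) and another lower (-0.33 ± 0.060, adjusted p = 0.00821), so its direction depended on the probe set. The lower one was not called with the beta-actin covariate (adjusted p = 0.103).

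Genes of GABA-A receptor trafficking went both ways, 9 higher and 7 lower of 32 probe sets for 19 of 21 genes (21 and 3 after quantile normalization, 23 and 5 with medians subtracted). Nsf, the ATPase that recycles membrane fusion complexes and also binds Gabarap, was higher on 2 probe sets, by 0.41 ± 0.070 and 0.30 ± 0.042 (limma, adjusted p = 0.00711 and 0.00436). Under the beta-actin covariate these were 0.23 and 0.22 and not called (adjusted p = 0.113 and 0.0794). Another varying Nsf probe set was at -0.10 and not called (adjusted p = 0.317). Kif5a, a kinesin motor that carries GABA-A receptors, was at 0.38 ± 0.058 (adjusted p = 0.00482) on its most clearly changed probe set. Chosen after their values were seen, the other varying Kif5a probe sets were at 0.26, called in 9 of 9 fits with a single array left out, and at -0.11, called in 2 of 9 and not after quantile normalization (adjusted p = 0.0662). The latter was not called without chow 1, 2 or 3 or powder 1, 2, 3 or 5 (adjusted p from 0.0591 to 0.107). None of the 3 was called with the beta-actin covariate (adjusted p = 0.0541, 0.164 and 0.504).

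Among genes that conjugate Atg8 proteins or act beside them in autophagy, 7 probe sets were higher and 5 lower of 23 for 13 of 15 genes. All probe sets together gave 17.9% and 16.7%. Quantile normalization made the list's counts 17 and 1, and subtracting medians made them 21 and 1. Only 5 of the 23 varied, 3 of them higher and 1 lower as deposited, against 16.1% and 38.8% of all varying probe sets. Sqstm1, the receptor p62 that binds Atg8 proteins, was higher by 0.16 ± 0.015 (limma, adjusted p = 0.00183). Atg12, a ubiquitin-like protein needed for Atg8 conjugation, was higher by 0.36 ± 0.082 (adjusted p = 0.0172). Atg4a, a protease that trims Atg8 proteins including the Gabarap group, was lower, at -0.24 ± 0.034 (adjusted p = 0.00436). The Sqstm1 call held with the beta-actin covariate (adjusted p = 0.0352), while Atg12 was at 0.24 (adjusted p = 0.252) and Atg4a at -0.16 (adjusted p = 0.0681), neither called.

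Other cation-chloride cotransporters and the kinases and regulators of this family gave 7 higher and 4 lower of 32 probe sets for 16 of 19 genes. The shares over all probe sets were 17.9% and 16.7%. The list's counts became 16 and 4 by quantile normalization and 24 and 6 by subtracting array medians. Among the 11 varying ones 3 were higher and 4 lower, against 16.1% and 38.8% of all varying probe sets. After the same rescalings these 11 gave 3 and 4, and 3 and 6. The varying probe sets of the WNK kinase pathway, which activates NKCC1 and restrains KCC2 by phosphorylation, included 3 called lower. Wnk1 had a chow mean of 10.12 ± 0.018 (SD, n = 4) and a powder mean of 10.40 ± 0.052 (SD, n = 5) and fell by 0.28 (-0.28 ± 0.027, limma adjusted p = 0.0019). Oxsr1, the kinase through which WNKs act on the transporters, had means of 8.37 ± 0.043 and 8.67 ± 0.050 and fell by 0.30 (-0.30 ± 0.031, adjusted p = 0.00215). Wnk2, chosen after its values were seen, was at -0.30 ± 0.065. These 3 calls held in 9 of 9 fits with a single array left out, and those of Wnk1 and Oxsr1 also held with the beta-actin covariate (adjusted p = 0.0375 and 0.0373), while that of Wnk2 did not (adjusted p = 0.119). Compressed Wnk1 probe sets 1368140_at and 1396919_at were called the other way, by 0.000169 and 0.000242.

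Ntrk2, the receptor of the neurotrophin BDNF, which regulates KCC2, was at -0.15 ± 0.022 on 1 varying probe set (limma, adjusted p = 0.00435). Another Ntrk2 probe set, chosen after its value was seen, was at 0.27 ± 0.060 (adjusted p = 0.0164), and at 0.17 (adjusted p = 0.25) with the beta-actin covariate. Neto2, of the same list and also chosen after its values were seen, was higher on varying probe sets 1384904_at and 1393729_at. The differences were 0.33 ± 0.057 and 0.13 ± 0.029 (limma, adjusted p = 0.00741 and 0.014). Neither was called with the beta-actin covariate (adjusted p = 0.111 and 0.239).

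Other chloride and bicarbonate genes gave 11 higher and 4 lower of 38 probe sets for 22 of 24 genes, against 17.9% and 16.7% of all probe sets. After quantile normalization this list gave 20 and 1, and with medians subtracted 31 and 2. Its 12 varying probe sets gave 5 higher and 2 lower as deposited, against 16.1% and 38.8% of all varying probe sets. The sodium bicarbonate cotransporter Slc4a4, strong in astrocytes, was at 0.43 ± 0.067 (limma, adjusted p = 0.00547), and the related Slc4a7 was at -0.26 ± 0.023 (adjusted p = 0.00183). Ttyh1, which encodes a transmembrane protein, was at 0.24 ± 0.065 (adjusted p = 0.0293) and was called in 4 of 9 fits with a single array left out. Slc4a7 and Ttyh1 each had a compressed probe set called in the opposite direction, 1369160_a_at at 0.000166 (adjusted p = 0.0213) and 1398578_at at -0.000249 (adjusted p = 0.0113). With the beta-actin covariate Slc4a4 was at 0.44 (adjusted p = 0.0715) and Ttyh1 at 0.19 (0.272), and neither was called. The 5 arrays without which Ttyh1 was not called were chow 1, chow 2, powder 1, powder 2 and powder 3.

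Glycine receptor and transporter genes gave 5 higher and 0 lower of 12 probe sets for 6 of 7 genes, against 17.9% and 16.7% of all probe sets. Among the 4 varying ones limma called 2 higher and 0 lower, against 16.1% and 38.8% of all varying probe sets. At an unadjusted limma p under 0.05, 0 of those 4 were lower. Glrb, the beta subunit through which gephyrin binds glycine receptors, had a chow mean of 9.57 ± 0.165 (SD, n = 4) and a powder mean of 9.25 ± 0.073 (SD, n = 5). It was higher by 0.32 ± 0.079, 1.25-fold (adjusted p = 0.0211), with 0.086 under the beta-actin covariate (adjusted p = 0.33). Glra2 passed at a difference of 0.0099 (adjusted p = 0.0492), a call that held in 1 of 9 fits with a single array left out, and another varying Glra2 probe set was at -0.12 (adjusted p = 0.258). The glycine transporter Slc6a9 was at 0.21 ± 0.070 (adjusted p = 0.055) and was not called.

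**Figure D4:**
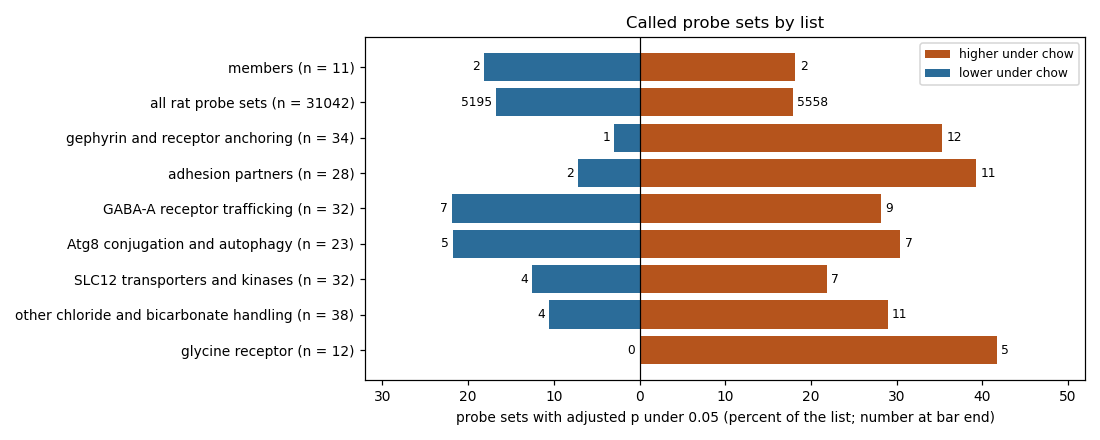
Share of probe sets called higher (right) or lower (left) under chow, in percent of each list, with the number at each bar's end, for the members, all rat probe sets and the 7 partner lists, on the values as deposited. The members' bars, 2 and 2 of 11, are close in length to those of all 31042 probe sets.

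**Figure D5:**
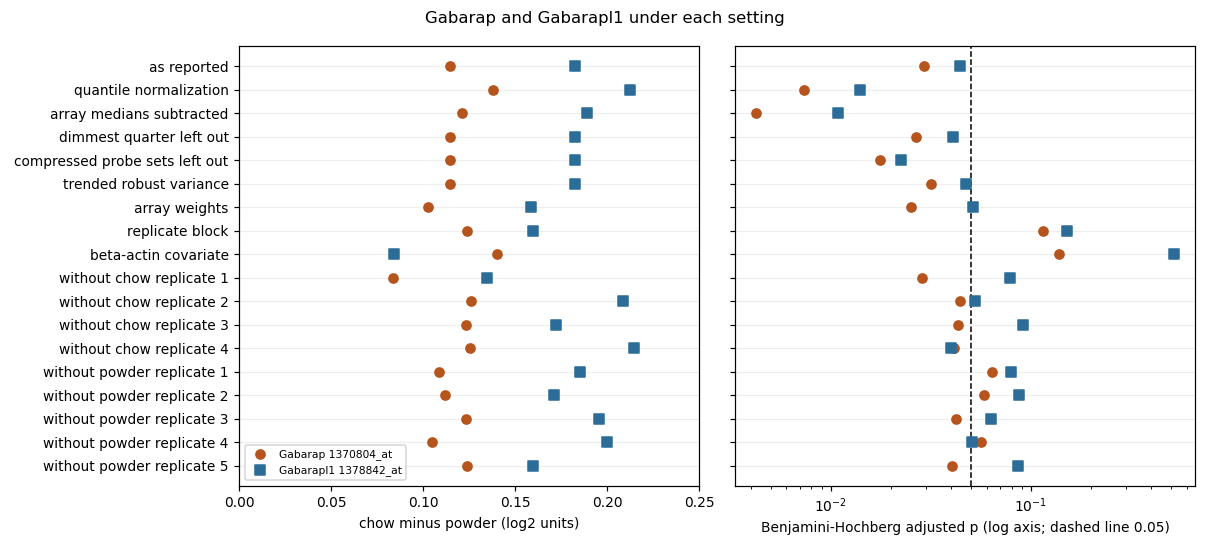
Chow minus powder difference in log2 units (left) and adjusted p on a log axis (right) of Gabarap 1370804_at and Gabarapl1 1378842_at, as reported, under each other processing and with each array left out. All differences stay above 0, between 0.083 and 0.214, while adjusted p-values fall on both sides of the dashed line at 0.05.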

How the data were processed

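The deposited table holds 1 log2 value per probe set and array, a scale read from the range of 5.37 to 14.0. How the authors corrected background, summarised and normalized the arrays is not given in the sources used here. Per the labels' protocols, RNA was extracted with TRIzol, cleaned on RNeasy columns and labelled from 100 ng. Groups and replicate numbers came from sample titles. After 57 control probe sets were left out, chow minus powder was fitted for all 31042 rat probe sets with lmFit and eBayes in limma 3.58.1 (R 4.3.3), without covariates, on the log2 values as deposited by the authors. Adjusted p-values are Benjamini-Hochberg over all probe sets, and folds are 2 raised to the difference. The fit was also run on simulated data with independent noise, a check of the code that does not bear on the calls reported here. Probe sets were named by the platform annotation (20826 with 1 symbol, 436 with several, 9780 with none). Named were all members, up to 3 varying probe sets of smallest p per partner list, and the 3 probe sets nearest to each of the 2 called members of widest span. Members and lists were chosen with earlier results of these data known. No detection calls were used, so no background level was set, and the number of arrays limits the precision.

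Alternatives were array medians subtracted, quantile normalization, fits without the dimmest 25% or without the compressed probe sets, array weights, a trended robust variance, a block for the replicate number, a beta-actin 3' minus 5' covariate, leaving out each array, and 1 value per gene.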

Additional observations from a re-analysis of the deposited data

Results flagged for a closer look

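In 3 of 22 groups of arrays (11 member probe sets, 2 diets), a single array lay apart by Dixon's criterion, which chance meets in about 1 in 20 groups. For Gabarap 1370804_at, chow 1 was at 11.13 and the next chow array at 11.01, a gap of 0.947 of the group's range. For Iqsec3 1391036_at, powder 4 was highest, with a gap of 0.767 of the range. For Gabarapl1 1371680_at, powder 5 was lowest, with a gap of 0.791. The last 2 are compressed probe sets.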

How the results depend on the processing

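Over all probe sets, 5558 were higher and 5195 lower as reported. The counts were 15610 and 1854 after quantile normalization, 27206 and 2141 with medians subtracted, 865 and 2019 without the compressed probe sets, 567 and 862 with the beta-actin covariate, and 3661 to 4879 and 3906 to 4843 with 1 array left out. Of the members, 2 and 2 became 9 and 0 under both rescalings, 2 and 0 without compressed probe sets, 1 and 2 with array weights, 0 and 0 with the covariate, and 0 to 2 and 1 to 2 with 1 array left out. Of the varying members, 2 higher became 1 with array weights, 0 with the covariate and 0 to 2 with 1 array left out; 0 were lower under each setting. Partner lists, 62 and 23, gave 123 and 10 (quantile), 164 and 15 (medians), 27 and 13 (uncompressed), 5 and 5 (covariate), and 44 to 54 and 13 to 21 with 1 array left out. Rescaling shifts the chow minus powder difference by a median of 0.0061 (quantile) or 0.0066 (medians). That is more than any compressed member spans, so rescaling sets their sign. Under quantile normalization and medians subtracted, Gphn was at 0.0302 and 0.0065, Nlgn2 1397705_at at 0.0137 and 0.00634, Gabarap 1378279_at at 0.00331 and 0.00629 and Gabarapl1 1371680_at at 0.0283 and 0.00644. Slc12a5 was at -0.0096 after quantile normalization and -1.64e-05 with the covariate. Iqsec3 was at -6.96e-05 with the covariate and -2.52e-05 to 6.12e-05 with 1 array left out. Slitrk3 was called after quantile normalization (0.0266, limma adjusted p = 0.0156). With 1 value per gene, Gabarapl1 was at -0.000127 by its brightest probe set and 0.0911 by the median of both (limma adjusted p = 0.0485), where 32.9% and 31.1% of 14217 genes were called. With array weights Gabarapl1 had an adjusted p of 0.0511 in limma. The beta-actin covariate ran largely with diet, and standard errors rose under it. For Gabarap 1370804_at the SE went from 0.031 to 0.051 while the difference rose from 0.11 to 0.14. For Gabarapl1 1378842_at the SE went from 0.058 to 0.082 while the difference fell from 0.18 to 0.084. The covariate cannot tell RNA quality from diet, and the cause of the losses under it was not tested.

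With the replicate number as a block, 1 probe set was higher and 18 lower, with 0 and 0 among the members and 1 and 0 in the partner lists. Gabarap was at 0.12 (limma adjusted p = 0.115) and Gabarapl1 at 0.16 (adjusted p = 0.151). Same-numbered chow and powder arrays deviated from their group means with correlations of -0.31, 0.19, -0.33 and -0.16. Of the 4 chow arrays, 0 correlated best with its own number. With so few arrays, this comparison cannot decide whether same-numbered arrays share a batch.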
